A study of Mus musculus with 12 samples.

Results

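The genes described here encode the phagocyte NADPH oxidase, the enzyme complex of the respiratory burst, and the proton channel that works beside it. They are Cybb, Cyba, Ncf1, Ncf4, Rac2 and Hvcn1, found by gene symbol in the deposited count table, and make up 6 of its 45906 genes. All 6 members passed the filter on low counts, which left 20155 genes for testing. The RNA came from whole spinal cord of 12 mice at 7 months of age, with 3 mice in each of 4 genotypes, all on a C57BL/6 background. Plekhg5+/+ mice carried intact Plekhg5, which encodes a guanine exchange factor. Plekhg5-/- mice lacked it. Plekhg5+/+ SOD1-G93A mice carried, in addition to intact Plekhg5, a human SOD1 transgene with the G93A mutation that causes motoneuron disease. Plekhg5-/- SOD1-G93A mice carried the same transgene without Plekhg5. The whole tissue was sequenced, so that fewer cells of a type and less RNA per cell cannot be told apart.

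The oxidase transfers electrons from NADPH in the cytosol across a membrane to oxygen and thereby produces superoxide. Its membrane part is a heterodimer of a large catalytic chain, encoded by Cybb, and a small stabilising chain, encoded by Cyba. Cytosolic subunits, among them the products of Ncf1 and Ncf4, join this heterodimer together with a Rac GTPase when the cell is stimulated. Hvcn1 encodes the voltage-gated channel through which protons follow the electrons, which keeps charge and pH in balance. In the central nervous system the complex is best known from microglia, and in blood from neutrophils and monocytes.

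Libraries held 30415643 to 38743628 counts. Plekhg5 was lower in Plekhg5-/- libraries, with a log2 fold change of -2.53 without the transgene and -2.40 with it, and human SOD1 counts separated the libraries by their labels. Y-linked transcripts were present in 3 of 3 Plekhg5+/+, 2 of 3 Plekhg5-/-, 2 of 3 Plekhg5+/+ SOD1-G93A and 1 of 3 Plekhg5-/- SOD1-G93A libraries. The first Plekhg5+/+ SOD1-G93A library stood apart, since it had the highest value of its group for 6 of 6 members. Values without this library are given where it moved a result. In the Plekhg5-/- SOD1-G93A group, replicate 1 was the highest for each member but Hvcn1.

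Levels were first compared between the members, per length of their annotated exons, as counts scaled to exon length and library size (RPKM). In Plekhg5+/+ mice the order was led by Cyba with 6.99 ± 0.236 RPKM (SD, n = 3) and Ncf1 with 3.85 ± 0.491 RPKM. Rac2 followed with 1.14 ± 0.12, Hvcn1 with 0.95 ± 0.0381, Ncf4 with 0.883 ± 0.298 and Cybb with 0.621 ± 0.116 RPKM. The ranges of Hvcn1 and Ncf4, and those of Ncf4 and Cybb, overlapped, whereas the other neighbours in this order did not overlap. Cyba and Ncf1 also led the order in the 3 other genotypes, but in Plekhg5+/+ SOD1-G93A mice the range of Ncf1 overlapped that of the next gene. Cybb was the lowest member in both genotypes without the transgene and the fourth of the 6 in both genotypes with it, where its range overlapped those of its neighbours. The summed exon length includes every annotated exon of a gene, so that a gene with exons unused in this tissue reads low on this scale.

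**Figure D1:**
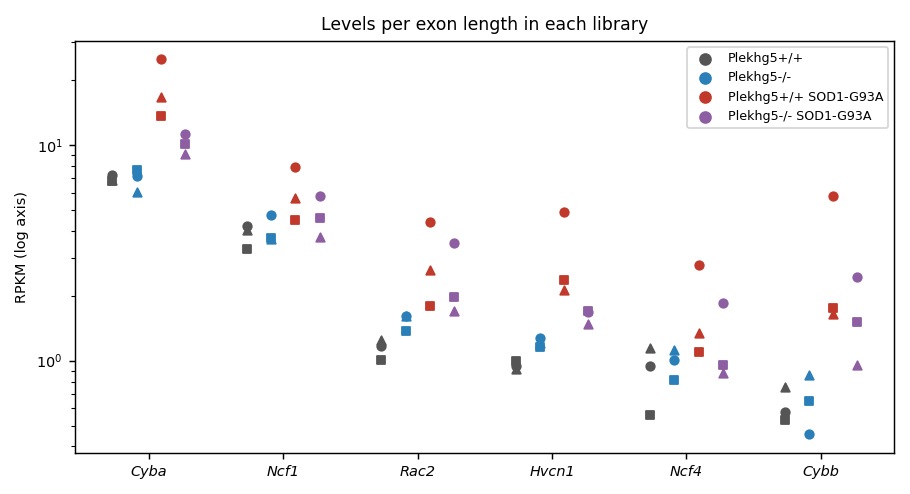
Levels of the 6 members per exon length (RPKM, log axis) in the 12 libraries. Each point is 1 library, colours mark genotypes, and circles, squares and triangles mark replicates 1, 2 and 3. Cyba lies above the other members in each genotype, and Cybb is lowest in the Plekhg5+/+ and Plekhg5-/- mice.

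Plekhg5+/+ SOD1-G93A mice were compared with Plekhg5+/+ mice to ask how the oxidase genes differ in the cord of mice with the transgene. Of the 6 members, 4 rose (Cybb, Cyba, Rac2 and Hvcn1), and Ncf1 and Ncf4 did not pass the threshold (edgeR quasi-likelihood test, adjusted p under 0.05). Among all genes tested, 2.09% were called higher. In 5 of 6 members, all but Ncf4, each Plekhg5+/+ SOD1-G93A library lay above each Plekhg5+/+ library, as it did for 11.6% of all genes. These shares describe the members and do not test them, since the members and gene lists were chosen with earlier results of these data known. The median log2 fold change was 1.38 over the members and -0.000994 over all genes tested. These calls were not stable. No member passed in the fit without Plekhg5+/+ replicate 1 or without replicate 2, or with libraries of the 2 compared genotypes alone. Over all genes, 4, 2 and 3 passed in these fits, against 498 in the main fit, so that calls were lost across the whole table. Only 2 members passed without Plekhg5+/+ replicate 3, without any 1 of the 3 Plekhg5-/- libraries, without Plekhg5+/+ SOD1-G93A replicate 1, or without Plekhg5-/- SOD1-G93A replicate 2. Over all genes, 323 passed without Plekhg5-/- replicate 2, 223 without Plekhg5+/+ SOD1-G93A replicate 1 and 313 without Plekhg5-/- SOD1-G93A replicate 2.

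**Figure D2:**
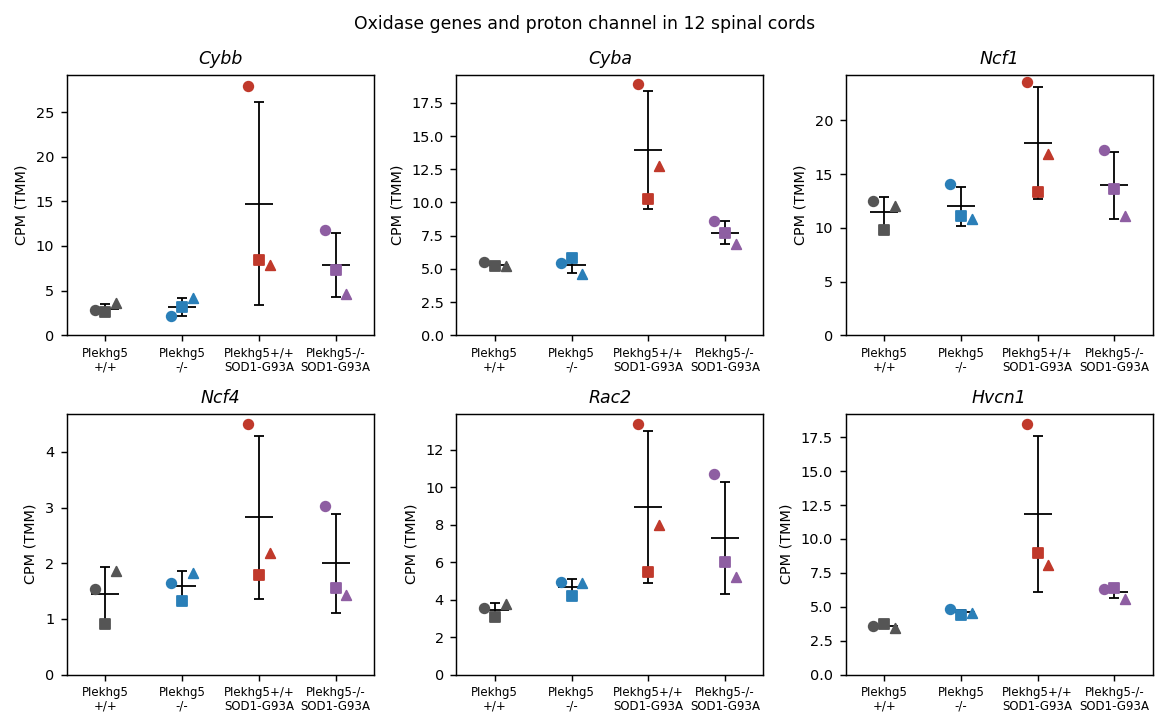
TMM-scaled CPM values of the 6 members by genotype. Points are libraries (circles, squares and triangles for replicates 1, 2 and 3), horizontal bars are means of 3 mice and whiskers are SD. The first Plekhg5+/+ SOD1-G93A library is the highest of the 12 for each member.

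Cybb, the catalytic chain that carries the electrons, lies on chromosome X from 9435252 to 9487766 on the minus strand of GRCm38.p6. Its level in library-scaled counts (CPM, counts per library total after TMM scaling) was 2.78, 2.55 and 3.61 in Plekhg5+/+ libraries and 27.9, 8.45 and 7.89 in Plekhg5+/+ SOD1-G93A libraries. The groups did not overlap, and the first transgenic library was more than 3 times as high as either of the other two. Cybb rose 4.94-fold (log2 fold change 2.31 ± 0.53 SE, adjusted p = 0.0493, edgeR). Without the first Plekhg5+/+ SOD1-G93A library the log2 fold change was 1.45 and the adjusted p was 0.0814 (edgeR), so that the call was lost. The call was lost in 9 of the 12 fits that each left out 1 library, this one among them. In Plekhg5-/- mice the 3 libraries had 2.19, 3.13 and 4.13 CPM, within and around the Plekhg5+/+ values. Plekhg5-/- SOD1-G93A mice had 11.7, 7.29 and 4.58 CPM, all above the highest value of the mice without the transgene.

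Cyba, the small chain that stabilises the heterodimer, lies on chromosome 8 from 122424771 to 122432940 on the minus strand. Plekhg5+/+ libraries had 5.51, 5.19 and 5.21 CPM, and Plekhg5+/+ SOD1-G93A libraries 18.9, 10.3 and 12.7 CPM. No value of one group reached the other, and the spread was small in the mice without the transgene. Cyba rose 2.64-fold (log2 fold change 1.40 ± 0.19 SE, adjusted p = 0.0124, edgeR). Without the first Plekhg5+/+ SOD1-G93A library, it was still called, with a log2 fold change of 1.12 and an adjusted p of 0.00143 (edgeR). The call of Cyba was lost in 2 of the 12 fits that each left out 1 library. Plekhg5-/- libraries had 5.47, 5.81 and 4.61 CPM, and Plekhg5-/- SOD1-G93A libraries 8.57, 7.71 and 6.86 CPM. The latter lay above all libraries without the transgene and below all Plekhg5+/+ SOD1-G93A libraries.

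The log2 ratio of Cyba to Cybb per exon length was 3.51 ± 0.277 in Plekhg5+/+ and 3.45 ± 0.588 in Plekhg5-/- mice (SD, n = 3). With the transgene it was 2.80 ± 0.638 in Plekhg5+/+ SOD1-G93A and 2.73 ± 0.519 in Plekhg5-/- SOD1-G93A mice. The ranges overlapped between mice with and without the transgene (two-sided exact permutation tests, p = 0.2 for both SOD1-G93A comparisons, adjusted p = 0.467 over 28 ratio tests). The difference between Plekhg5+/+ SOD1-G93A and Plekhg5+/+ mice was -0.71. It was -0.359 without Plekhg5+/+ SOD1-G93A replicate 1 and -0.984 without replicate 3 of this group. With 3 mice against 3 such a test cannot go below 0.1.

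Ncf1 encodes the cytosolic organiser subunit that links the other cytosolic subunits to the membrane heterodimer, and lies on chromosome 5 from 134220053 to 134229628 on the minus strand. It had 12.5, 9.79 and 12.0 CPM in Plekhg5+/+ and 23.6, 13.3 and 16.8 CPM in Plekhg5+/+ SOD1-G93A libraries. The groups did not overlap, but the lowest transgenic value was close to the highest value without the transgene. The log2 fold change of 0.64 ± 0.21 SE did not pass the threshold (adjusted p = 0.121, edgeR). Without Plekhg5+/+ SOD1-G93A replicate 1 it was 0.396 (adjusted p = 0.412, edgeR). DESeq2, the tool used in the study, called Ncf1 without a prior on fold changes (adjusted p = 0.0429, 4.03% of all genes called higher) and with it (adjusted p = 0.0406, 4.02% called higher). With Y-linked transcripts as a covariate in edgeR, Ncf1 also passed (adjusted p = 0.0311), and 5 of 6 members were then called, together with 2 of 10 neutrophil markers. The share of all genes called in this fit is not reported here, so these counts cannot be read against it. Plekhg5-/- libraries had 14.1, 11.1 and 10.9 CPM and Plekhg5-/- SOD1-G93A libraries 17.3, 13.6 and 11.1 CPM, which overlapped.

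Ncf4, which encodes a cytosolic subunit that binds phosphoinositides of the phagosome membrane, lies on chromosome 15 from 78244164 to 78262582 on the plus strand. It was the member with the lowest CPM in each of the 12 libraries, with 29 counts in the lowest. Plekhg5+/+ libraries had 1.54, 0.913 and 1.87 CPM and Plekhg5+/+ SOD1-G93A libraries 4.50, 1.78 and 2.19 CPM. The groups overlapped, since the second transgenic library lay below the third Plekhg5+/+ library. The log2 fold change was 0.97 ± 0.38 SE (adjusted p = 0.199, edgeR), and 0.463 without Plekhg5+/+ SOD1-G93A replicate 1. Values were 1.64, 1.33 and 1.83 CPM in Plekhg5-/- and 3.02, 1.55 and 1.42 CPM in Plekhg5-/- SOD1-G93A libraries, also overlapping.

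Rac2, the Rac GTPase of blood-forming cells that activates the assembled oxidase, lies on chromosome 15 from 78559169 to 78572783 on the minus strand. Its values were 3.54, 3.05 and 3.77 CPM in Plekhg5+/+ and 13.4, 5.45 and 7.98 CPM in Plekhg5+/+ SOD1-G93A libraries, without overlap. Rac2 rose 2.59-fold (log2 fold change 1.37 ± 0.32 SE, adjusted p = 0.0466, edgeR). The call was lost without the first Plekhg5+/+ SOD1-G93A library, with a log2 fold change of 0.96 and an adjusted p of 0.156 (edgeR). This was 1 of 9 such losses in the 12 fits that each left out 1 library. Plekhg5-/- libraries had 4.92, 4.19 and 4.89 CPM, each above each Plekhg5+/+ library. Plekhg5-/- SOD1-G93A libraries had 10.7, 5.98 and 5.18 CPM, within the range of Plekhg5+/+ SOD1-G93A libraries but for the lowest.

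Hvcn1, the proton channel, lies on chromosome 5 from 122206805 to 122242297 on the plus strand. Plekhg5+/+ libraries had 3.57, 3.75 and 3.46 CPM, and Plekhg5+/+ SOD1-G93A libraries 18.5, 8.98 and 8.07 CPM. All 3 transgenic libraries lay far above the narrow range of the Plekhg5+/+ mice. Hvcn1 rose 3.30-fold (log2 fold change 1.72 ± 0.25 SE, adjusted p = 0.0125, edgeR), and without the first Plekhg5+/+ SOD1-G93A library it was still called (log2 fold change 1.25, adjusted p = 0.000359, edgeR). Its call was lost in 2 of the 12 fits that each left out 1 library. In Plekhg5-/- libraries it had 4.80, 4.37 and 4.57 CPM, each above each Plekhg5+/+ library. Plekhg5-/- SOD1-G93A libraries had 6.32, 6.41 and 5.59 CPM and lay between the groups without the transgene and the Plekhg5+/+ SOD1-G93A mice, overlapping neither.

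Plekhg5-/- SOD1-G93A mice were then compared with Plekhg5+/+ SOD1-G93A mice, to ask whether the oxidase genes differ with the loss of Plekhg5 in transgenic mice. This comparison shares the Plekhg5+/+ SOD1-G93A libraries with the previous one. None of the 6 members passed the threshold (edgeR), where 0.0347% of all genes tested did, in either direction. While 47.5% of all genes had positive log2 fold changes, those of the members were negative for 6 of 6. The largest were those of Hvcn1 with -0.96 ± 0.24 SE (adjusted p = 0.402, edgeR), Cybb with -0.91 ± 0.49 (adjusted p = 0.598) and Cyba with -0.86 ± 0.18 (adjusted p = 0.314). Ncf4 had -0.51 ± 0.37, Ncf1 -0.36 ± 0.20 and Rac2 -0.30 ± 0.30. Cyba and Hvcn1 were lower in each Plekhg5-/- SOD1-G93A library than in each Plekhg5+/+ SOD1-G93A library, so 2 of 6 members did not overlap downwards, against 10% of all genes. The same 2 members had an unadjusted p under 0.05, as did 5.05% of all genes in this direction.

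DESeq2 called these 2 members lower. Without a prior on fold changes the adjusted p was 0.0106 for Cyba and 0.0437 for Hvcn1, and 0.211% of all genes were called lower. With the prior, as the study used it, the adjusted p was 0.00333 for Cyba and 0.0121 for Hvcn1, and 0.383% of all genes were called lower. limma voom with sample quality weights called 0 members. The sizes depended on single libraries. Without the first Plekhg5+/+ SOD1-G93A library the log2 fold change of Cyba was -0.58, that of Hvcn1 -0.48 and that of Cybb -0.06, while that of Rac2 was 0.11. The median over the 6 members was -0.68 with this library and -0.08 without it. Without Plekhg5-/- SOD1-G93A replicate 1 the median was further from 0, at -0.92.

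Between Plekhg5-/- and Plekhg5+/+ mice without the transgene, no member passed the threshold (edgeR), where 0.0298% of all genes did. No member had an unadjusted p under 0.05, against 5.32% of all genes, and neither DESeq2, with or without the prior, nor limma voom called any. Hvcn1 with a log2 fold change of 0.35 ± 0.26 SE and Rac2 with 0.43 ± 0.32 were higher in each Plekhg5-/- library than in each Plekhg5+/+ library, as were 4.72% of all genes (adjusted p = 0.992 and 0.994, edgeR). The 4 other members had log2 fold changes between -0.000993 for Cyba and 0.15 for Ncf4. The 95% interval of this difference was -0.44 to 0.44 for Cyba and -1.20 to 1.35 for Cybb, so that a change of Cybb by 2-fold could not have been told from none.

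In mice without Plekhg5, the SOD1-G93A transgene was set against its absence. While 48.3% of all genes had positive log2 fold changes, those of the 6 members were all positive. The largest were those of Cybb with 1.32 ± 0.52 SE and Rac2 with 0.64 ± 0.31. Cyba followed with 0.54 ± 0.19, Hvcn1 with 0.41 ± 0.25, Ncf4 with 0.32 ± 0.38 and Ncf1 with 0.22 ± 0.21. No member passed the threshold (adjusted p from 0.787 to 0.951, edgeR), where 0.00496% of all genes did. Cybb and Cyba had an unadjusted p under 0.05, as did 3.27% of all genes in the higher direction, and neither DESeq2, with or without the prior, nor limma voom called a member. Cybb, Cyba, Rac2 and Hvcn1 were higher in each Plekhg5-/- SOD1-G93A library than in each Plekhg5-/- library, so 4 of 6 members did not overlap, against 7.25% of all genes.

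The interaction asks whether the difference made by the transgene is itself different without Plekhg5. Its log2 value was negative for 6 of 6 members, from -0.43 ± 0.29 SE for Ncf1 to -1.31 ± 0.35 for Hvcn1, while 47.4% of all genes had positive values. Without Plekhg5+/+ SOD1-G93A replicate 1 the interaction was -0.135 for Cybb, -0.148 for Ncf4, -0.179 for Ncf1, -0.321 for Rac2, -0.578 for Cyba and -0.832 for Hvcn1. The median over the members was then -0.25, against -0.80 with this library. Without Plekhg5-/- SOD1-G93A replicate 1 this median was -1.07. No member passed the threshold (adjusted p from 0.375 to 0.682, edgeR), and 0% of all genes did. Hvcn1 and Cyba, the latter with -0.86 ± 0.26, had an unadjusted p under 0.05, as did 5.18% of all genes in the lower direction. DESeq2 with the prior called Hvcn1 (adjusted p = 0.0374), where 0.311% of all genes were called lower, and DESeq2 without the prior and limma voom called 0 members. A difference between mice with and without Plekhg5 in the response of the oxidase genes to the transgene was therefore not shown by the main test.

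**Figure D3:**
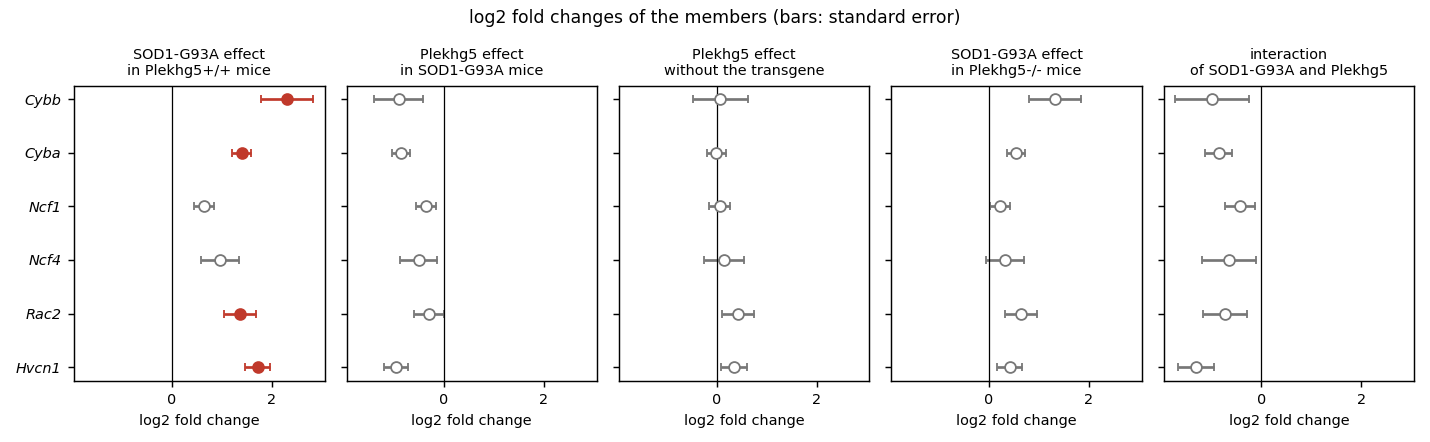
Log2 fold changes of the 6 members in the 4 pairwise comparisons and the interaction (edgeR). Bars are standard errors, and filled red points passed an adjusted p of 0.05. Only Cybb, Cyba, Rac2 and Hvcn1 in the first panel are filled, and the values in the second and last panels are negative for all 6 members.

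Markers of microglia moved with the members. Of 10 microglial markers, 8 rose in Plekhg5+/+ SOD1-G93A against Plekhg5+/+ mice (edgeR), among them Csf1r (log2 fold change 0.89), Aif1 (1.41), C1qa (1.57) and Fcrls (2.26), while Tmem119 with 0.25 and Sall1 with 0.23 did not pass. Their summed level was 453 to 507 CPM in Plekhg5+/+, 490 to 653 in Plekhg5-/-, 787 to 1364 in Plekhg5+/+ SOD1-G93A and 615 to 672 CPM in Plekhg5-/- SOD1-G93A mice, with none of the 10 genes at 0 throughout a group. In Plekhg5-/- SOD1-G93A against Plekhg5+/+ SOD1-G93A mice, 0 of the 10 markers had a positive log2 fold change. An unadjusted p under 0.05 was found for 8 of them and for 8.64% of all genes (edgeR). The interaction had the same counts of markers, against 9.05% of all genes, and no marker passed in either. The part of microglial number or state in the members' differences was not tested.

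Each member was therefore also given as a log2 ratio to the mean of the 10 microglial markers in the same library. Against these markers, Cybb was higher by 1.09, Hvcn1 by 0.66 and Cyba by 0.40 in Plekhg5+/+ SOD1-G93A than in Plekhg5+/+ mice, each without overlap between the groups (two-sided exact permutation test, p = 0.1, the smallest that 3 against 3 allow). Ncf1 was lower against the markers, with a difference of -0.34, also without overlap (exact permutation p = 0.1). Rac2 (0.32) and Ncf4 (-0.06) overlapped between the groups. Without Plekhg5+/+ SOD1-G93A replicate 1 the differences were 0.712 for Cybb, 0.494 for Hvcn1, 0.363 for Cyba, 0.188 for Rac2, -0.24 for Ncf4 and -0.346 for Ncf1. Over all 28 ratio tests the adjusted p was at least 0.467, so that none passed. Ratios to the markers were computed for the members alone, so no share over all genes stands beside the groups without overlap. With 4 of the markers alone, the differences were 0.40 for Hvcn1, 0.14 for Cyba, 0.06 for Rac2 and -0.59 for Ncf1.

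Between the transgenic groups, Cyba was lower against the 10 markers in each Plekhg5-/- SOD1-G93A library, by a mean difference of -0.27 (exact permutation p = 0.1). The other 5 members overlapped, with differences from -0.31 for Hvcn1 to 0.27 for Rac2. Without Plekhg5+/+ SOD1-G93A replicate 1 the differences were -0.144 for Hvcn1 and 0.403 for Rac2, and that of Cybb was 0.178 against -0.20 with this library. Between Plekhg5-/- SOD1-G93A and Plekhg5-/- mice, the ratio of Cyba was higher by 0.32 without overlap (exact permutation p = 0.1). In this comparison the ratio of Cybb differed by more, 1.02, but overlapped (exact permutation p = 0.2). Rac2 with 0.35, Hvcn1 with 0.19, Ncf4 with 0.02 and Ncf1 with -0.02 overlapped as well.

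**Figure D4:**
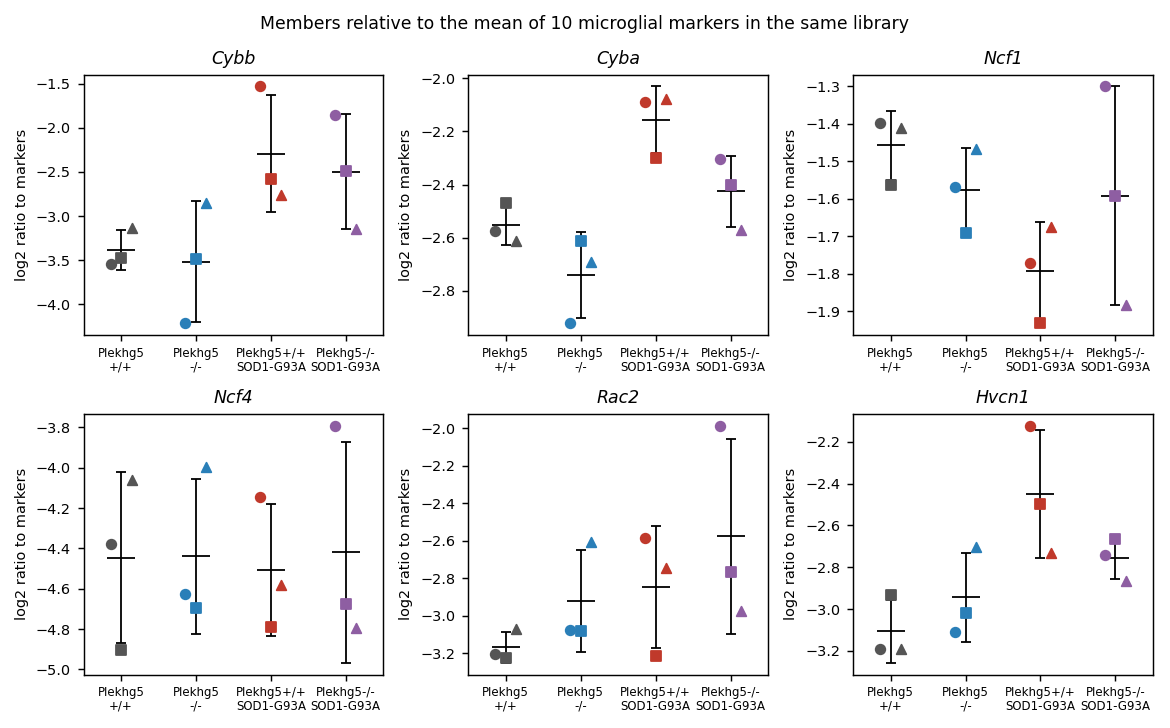
Log2 ratio of each member to the mean of 10 microglial markers in the same library, by genotype; points are libraries (circles, squares and triangles for replicates 1, 2 and 3), horizontal bars means of 3 mice and whiskers SD. Cybb, Cyba and Hvcn1 lie higher, and Ncf1 lower, in Plekhg5+/+ SOD1-G93A than in Plekhg5+/+ mice, while Ncf4 overlaps between all genotypes. Vertical axes differ between panels and do not start at 0.

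Markers of other cells that carry the oxidase were looked at beside this. None of 10 neutrophil markers passed in any comparison (edgeR), apart from 2 in the fit with Y-linked transcripts as a covariate, although 10 of 10 had positive log2 fold changes in Plekhg5+/+ SOD1-G93A against Plekhg5+/+ mice, with an unadjusted p under 0.05 for 1 of them. Their summed level varied from 15.8 to 74.7 CPM in Plekhg5+/+, 32.3 to 85.0 in Plekhg5-/-, 46.1 to 156 in Plekhg5+/+ SOD1-G93A and 24.0 to 273 CPM in Plekhg5-/- SOD1-G93A mice, and no gene of the list was at 0 throughout a group. Of 5 B cell markers, Cd79b rose in Plekhg5+/+ SOD1-G93A mice (log2 fold change 1.84, adjusted p = 0.0366, edgeR), a call that was lost in 7 of the 12 fits that each left out 1 library, among them the fit without Plekhg5+/+ SOD1-G93A replicate 1, and the summed level of the list was 1.22 to 2.77 CPM in Plekhg5+/+ and 3.04 to 6.49 CPM in Plekhg5+/+ SOD1-G93A mice. Of 6 motoneuron markers, 6 had negative log2 fold changes in Plekhg5+/+ SOD1-G93A against Plekhg5+/+ mice (median -0.34, 4 with an unadjusted p under 0.05) and 6 had positive ones in Plekhg5-/- SOD1-G93A against Plekhg5+/+ SOD1-G93A mice (median 0.24, 3 with an unadjusted p under 0.05), and 0 passed in either (edgeR), while DESeq2 called 1 in the former. Their summed level was 275 to 283 CPM in Plekhg5+/+, 272 to 284 in Plekhg5-/-, 201 to 263 in Plekhg5+/+ SOD1-G93A and 225 to 306 CPM in Plekhg5-/- SOD1-G93A mice. Over all genes, 49.7% had positive log2 fold changes in Plekhg5+/+ SOD1-G93A against Plekhg5+/+ mice and 47.5% between the transgenic groups. None of 4 monocyte, 6 border macrophage and 5 oligodendrocyte markers passed, nor did Trac, the only 1 of 6 T and NK cell markers with enough counts for a test. Of 5 astrocyte markers, Gfap rose (log2 fold change 1.23, adjusted p = 0.0198, edgeR). No marker of this list passed without Plekhg5+/+ replicate 1 or 2, fits in which 4 and 2 of all genes passed. The part of these cells in the members' values was not tested.

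Among further genes of the complex, Rac1, the widely expressed Rac GTPase, had 0.12, Rap1a, a small GTPase bound to the membrane heterodimer, 0.13, and Cybc1, a chaperone of the heterodimer, -0.16 on the log2 scale, in Plekhg5+/+ SOD1-G93A against Plekhg5+/+ mice, and none of these passed (edgeR). Of 9 genes of other NADPH oxidases and their partners, 3 had enough counts for a test, Nox4 (0.65), Noxo1 (0.20) and Duox1 (0.17), and none passed.

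Among 16 kinases, exchange factors, GDP dissociation inhibitors and receptors upstream of the oxidase, 8 rose in Plekhg5+/+ SOD1-G93A mice (edgeR), and the list had a median log2 fold change of 0.52. Without Plekhg5+/+ SOD1-G93A replicate 1, the list had 4 calls, without Plekhg5+/+ replicate 1 or 2 it had 0, and with limma voom 2. In the same fits, 223 genes of the whole table passed without Plekhg5+/+ SOD1-G93A replicate 1, 4 and 2 without Plekhg5+/+ replicates 1 and 2, and 282 with limma voom. The 8 genes called with all libraries were the integrin chains Itgb2 (1.67) and Itgam (1.06), the receptor Tlr2 (1.6), the Rac exchange factor Vav1 (1.18), the GDP dissociation inhibitor Arhgdib (1.13), the lipid kinase Pik3cg (0.84), the phospholipase Plcg2 (0.81) and the protein kinase Prkcd (0.39), which phosphorylates cytosolic subunits. Vav3, with -0.15, had the smallest log2 fold change and did not pass. Most of these genes are also expressed by microglia. Of 13 genes that remove superoxide and peroxide, only Prdx6, a peroxiredoxin, rose (log2 fold change 0.69, adjusted p = 0.0458, edgeR), a call that was lost in 9 of the 12 fits that each left out 1 library, among them the fit without Plekhg5+/+ SOD1-G93A replicate 1, and the median of the list was 0.14. Sod2, the mitochondrial superoxide dismutase, had the smallest log2 fold change of this list, -0.10, and did not pass. In the 3 other pairwise comparisons and in the interaction, no gene of these 4 lists passed in edgeR, nor did any cell type marker.

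**Figure D5:**
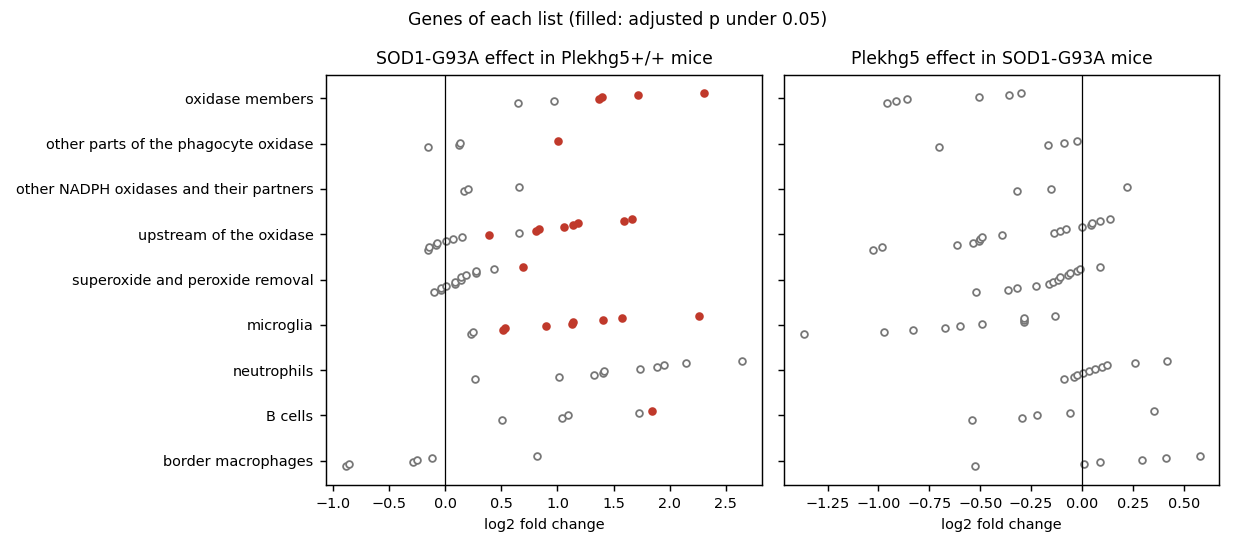
Log2 fold changes of the tested genes of each list in Plekhg5+/+ SOD1-G93A against Plekhg5+/+ mice (left) and in Plekhg5-/- SOD1-G93A against Plekhg5+/+ SOD1-G93A mice (right). Each point is a gene, and filled red points passed an adjusted p of 0.05 (edgeR). The left panel holds 4 filled oxidase members, 8 filled genes upstream of the oxidase and 8 filled microglial markers, and the right panel none. Horizontal axes differ between the panels, and both panels share the Plekhg5+/+ SOD1-G93A libraries.

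The members varied together across the 12 libraries. The Pearson correlation of log2 CPM between pairs of members ranged from 0.743 to 0.95 with a median of 0.863 over 15 pairs. After subtraction of genotype means the median was 0.801, and without the first Plekhg5+/+ SOD1-G93A library it was 0.753. These are descriptions over libraries that share tissue, depth and genotype groups. Outside the members, the genes most like their mean were Sla (r = 0.991, n = 12 libraries), Lrmp (0.982), Itgb2 (0.98) and Tifab (0.976). Top2a (0.975) and Cdk1 (0.973), which dividing cells express, were also among the 10 most alike. Without the first Plekhg5+/+ SOD1-G93A library, 7 of these 10 genes remained, with Top2a (0.953) but not Cdk1 among them.

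Single members differed in the genes closest to them. Cybb was most like Lilrb4a (0.983), an inhibitory receptor of myeloid cells, and Cyba most like Cd52 (0.985) and Cd53 (0.981), with Spi1, which encodes the myeloid factor PU.1, in the next place (0.978). Hvcn1 was most like Mpeg1 (0.993), a pore-forming protein of phagocytes, and Tlr2 (0.992). Ncf1 was most like Gpsm3 (0.96) and Ncf4 most like Btnl10 (0.949). Rac2 was most like Nusap1, Mki67 and Kif11, all known from dividing cells. These rankings for single members were not repeated without the first Plekhg5+/+ SOD1-G93A library.

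Promoter windows of RefSeq on GRCm38.p6, from 250 bases before to 50 bases after the annotated start, were matched by symbol for 3 of the 6 members, Cybb, Cyba and Ncf1. They are shown because the members varied together and these 3 had unlike differences in SOD1-G93A mice. Capitals mark matches on either strand to 5 motifs of factors known from myeloid genes. These were the PU.1 core GAGGAA, present in 28.3% of 32851 promoter windows of this length, a composite of an ETS and an IRF site (GGAA and GAAA with any 2 bases between them, 2.72%), an IRF pair (GAAA and GAAA with any 2 bases between them, 3.44%), C/EBP (TTNNGCAA, 10.8%) and AP-1 (TGANTCA, 7.81%). The windows lie at chrX:9469275-9469574, chr8:122432891-122433190 and chr5:134229576-134229875, all on the minus strand, and are printed 5′ to 3′ in the direction of the gene. The start used for the Cybb window lies inside the gene span given above, downstream of its outermost annotated end, while the windows of Cyba and Ncf1 lie at the ends of their spans.
Cybb: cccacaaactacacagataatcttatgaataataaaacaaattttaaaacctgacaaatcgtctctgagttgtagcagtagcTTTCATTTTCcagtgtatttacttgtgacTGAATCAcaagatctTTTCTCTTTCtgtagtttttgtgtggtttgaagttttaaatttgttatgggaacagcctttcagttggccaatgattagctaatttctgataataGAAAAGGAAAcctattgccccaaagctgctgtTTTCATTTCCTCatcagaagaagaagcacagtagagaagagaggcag
Cyba: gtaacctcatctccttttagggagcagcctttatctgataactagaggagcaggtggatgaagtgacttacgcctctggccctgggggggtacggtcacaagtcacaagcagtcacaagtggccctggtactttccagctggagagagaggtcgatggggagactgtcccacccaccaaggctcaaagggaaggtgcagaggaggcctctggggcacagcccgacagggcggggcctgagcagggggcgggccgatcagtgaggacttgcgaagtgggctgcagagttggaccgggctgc
Ncf1: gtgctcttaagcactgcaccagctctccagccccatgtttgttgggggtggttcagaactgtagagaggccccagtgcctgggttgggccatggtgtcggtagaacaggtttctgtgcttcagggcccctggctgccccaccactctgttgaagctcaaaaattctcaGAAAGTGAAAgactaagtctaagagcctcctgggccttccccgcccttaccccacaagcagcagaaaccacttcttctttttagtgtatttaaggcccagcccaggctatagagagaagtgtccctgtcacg

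The Cybb window held 6 matches. One was to the PU.1 core and 1 to the ETS and IRF composite, which overlap just behind the start used for this window, 3 were to the IRF pair and 1 was to AP-1. Ncf1 held 1 match, to the IRF pair 82 bases before the start, and Cyba held none of the 5 motifs in these letters. A match describes the sequence only, and no binding was measured in these samples.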

How the data were processed

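Spinal cord RNA of 12 mice was sequenced after poly-A selection with strand information. According to the study's methods and the submitters' processing notes, the authors made base calls with bcl2fastq 2.20.0.422, trimmed reads with Cutadapt 2.4, mapped them with STAR 2.7.2b to GRCm38.p6, to which the cDNA of human SOD1 was added, and assigned them by strand to RefSeq exons with featureCounts 1.6.4, giving fractions to reads on several places or genes. The deposited values, made by the authors in this way, are each an estimated count per gene, without normalization or filter. Counts of multi-mapped reads are approximate. Values of 5 members were whole in each library, and Rac2 had 1 library with a fraction.

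Counts were rounded, filtered with filterByExpr (20155 of 45906 genes kept), scaled with TMM and fitted with the robust quasi-likelihood model of edgeR 4.0.16 in R 4.3.3 over the 4 genotypes together. P-values were adjusted by Benjamini-Hochberg over all genes tested, with a threshold of 0.05. Log2 CPM used a prior count of 2. For ratios, exact permutation tests (two-sided) were used. The members and gene lists were chosen with earlier results of these data known. Genes named are the members, the 2 targeted genes, listed genes that passed or had the largest or smallest log2 fold change of a list, markers, and the genes most like the members by correlation, ranked over all genes tested. Rac1, Rap1a and Noxo1 fall outside this rule and were named after their values were seen.

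Alternatives were DESeq2 1.42.0 with and without a fold-change prior, its size factors in edgeR, no filter or at least 10 counts in every library, unrounded counts, an adjusted p under 0.1, only the 2 genotypes compared, the replicate number as a block, Y-linked transcripts (over 1000 counts of such genes) as a covariate, limma 3.58.1 voom with sample quality weights, other markers or prior counts for the ratios, and each library left out in turn. The models were tested on simulated data. The labels do not say how the 3 mice of a genotype were chosen. The edgeR p-values set a difference against the spread between mice of a genotype, estimated over the 4 genotypes together. Figures were made with matplotlib 3.10.9. Some genes of the lists are not reported here.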

Additional observations from a re-analysis of the deposited data

Results flagged for a closer look

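Hvcn1 was flagged because mice with and without Plekhg5 did not overlap, in opposite directions with and without the transgene. Neither difference passed in edgeR (adjusted p = 0.402 and 0.992). Each Plekhg5-/- library lay above each Plekhg5+/+ library (4.58 ± 0.215 against 3.59 ± 0.144 CPM, SD, n = 3). Each Plekhg5-/- SOD1-G93A library lay below each Plekhg5+/+ SOD1-G93A library. Taken singly, these patterns were found in 4.72% and 10% of all genes, and the share with both was not computed. Cybb, Ncf1, Ncf4 and Rac2 also had opposite signs, but their groups overlapped with the transgene. The interaction log2 fold change was -1.31, and its test did not pass (adjusted p = 0.375, edgeR). DESeq2 gave an adjusted p of 0.057 without and 0.0374 with the prior. Without the first Plekhg5+/+ SOD1-G93A library, the interaction was -0.832 on the log2 scale, and without replicate 3 of this group it was -1.52.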

How the results depend on the processing

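With edgeR or limma voom, 0 members passed in the 3 later pairwise comparisons and the interaction under each alternative run. In Plekhg5+/+ SOD1-G93A against Plekhg5+/+ mice, 4 members passed as reported, against 2 with no filter on low counts, 2 with limma voom and 0 with only the 2 genotypes compared. Leaving out each library in turn gave 0 to 5 members. Over all genes, 498 passed there as reported, 1159 with DESeq2 without and 1190 with the prior, 1145 at an adjusted p under 0.1, 3 with only the 2 genotypes and 282 with limma voom, and 2 to 771 with a library left out. In the order of the 3 other pairwise comparisons (Plekhg5 effect with the transgene, Plekhg5 effect without it, SOD1-G93A effect in Plekhg5-/- mice), DESeq2 without the prior called 72, 34 and 45 genes and with it 114, 32 and 41, against 7, 6 and 1 as reported. With only 2 genotypes, the first gave 11 and the last 20 genes. The last gave 9 with limma voom and 0 with at least 10 counts in every library. With a library left out, the 3 comparisons gave 4 to 8, 5 to 59 and 1 to 9 genes. The interaction gave 0 genes as reported, 95 and 112 with DESeq2 without and with the prior, 1 with no filter, and 0 to 40 with a library left out.

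DESeq2 called 2 members in Plekhg5-/- SOD1-G93A against Plekhg5+/+ SOD1-G93A mice, both with and without the prior, and 1 member in the interaction with the prior. The 4 lists around the members held 10 genes called in Plekhg5+/+ SOD1-G93A mice as reported, 0 with only the 2 genotypes, 2 with limma voom and 0 to 11 with a library left out. DESeq2 called 2 of these genes in the Plekhg5 effect with the transgene and 1 in the interaction, with and without the prior. Microglial markers called were 8 as reported, 5 with no filter, 0 with only the 2 genotypes and 0 to 8 with a library left out, and DESeq2 with the prior called 2 in the Plekhg5 effect with the transgene and 2 in the interaction. Ratios to 4 in place of 10 microglial markers were 0.14 for Cyba, -0.592 for Ncf1, 0.4 for Hvcn1 and 0.0627 for Rac2 in Plekhg5+/+ SOD1-G93A against Plekhg5+/+ mice, and -0.131 for Cyba between the transgenic groups. The cause of these shifts was not tested.

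Signs turned for small differences. For the Plekhg5 effect without the transgene, Cyba had 0.00132 with at least 10 counts in every library, 0.0816 with Y-linked transcripts as a covariate, 0.0477 with limma voom, and 0.0278 and 0.089 without Plekhg5+/+ replicate 1 and Plekhg5-/- replicate 3. Without Plekhg5+/+ replicate 2, Cybb had -0.0229, Ncf1 -0.0339, Ncf4 -0.0913 and the median of the members -0.0196, and the highest values without 1 library were 0.285 for Cybb, 0.371 for Ncf4 and 0.277 for the median, while the lowest for Cyba was -0.073. Cybb had -0.164 without Plekhg5-/- replicate 3 and Ncf1 -0.0625 without Plekhg5-/- replicate 1. Ncf4 had -0.102 for the SOD1-G93A effect in Plekhg5-/- mice without Plekhg5-/- SOD1-G93A replicate 1, up to 0.509 without replicate 3. Rac2 had 0.112 for the Plekhg5 effect with the transgene without Plekhg5+/+ SOD1-G93A replicate 1, and -0.667 without Plekhg5-/- SOD1-G93A replicate 1.

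The replicate numbers are not known to pair the mice. After subtraction of genotype means, 6 of 12 libraries correlated best with a library of the same number in another genotype. No chance level was computed for this count. Libraries of the same number had mean correlations of 0.116, 0.0655 and -0.0598 for replicates 1, 2 and 3. With the replicate block, 4 members passed in Plekhg5+/+ SOD1-G93A against Plekhg5+/+ mice, with Ncf1 in place of Cybb, 631 genes passed in all, and 0 members passed elsewhere. With 3 mice per group, the ratio tests cannot reach the threshold.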
